A study of Rattus norvegicus with 6 samples.

Results

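The genes of the sodium pump family described here were the β subunits Atp1b1, Atp1b2 and Atp1b3, their relative Atp1b4 and the regulator Fxyd1. They were chosen by name, with earlier results of these data known. Every probe set annotated to exactly 1 of them was taken, whatever its value. The 5 genes, of 10411 named genes on the array, had 6 probe sets of 15866. Atp1b1 had 2 probe sets and each of the others had 1.

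Expression was measured in the left costal diaphragm with Affymetrix RAE 230A arrays, 1 array per rat. The diabetic group was 3 male Wistar rats given 60 mg/kg streptozotocin at 8 weeks of age and studied 4 weeks later without insulin. The normal group was 3 male Wistar rats given the injection buffer alone. Both groups were fasted overnight before the muscle was removed. Streptozotocin destroys the insulin-producing cells of the pancreas, so the diabetic rat is a model of insulin deficiency. The whole hemidiaphragm muscle holds slow and fast fibres together with vessels, nerve and connective tissue.

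The sodium pump, or Na,K-ATPase, uses ATP to export sodium from the cell and to import potassium. In skeletal muscle it restores the ion gradients that each action potential runs down, and insulin is known to stimulate it. A catalytic α subunit is joined by a glycosylated β subunit, which is needed for the folding of the enzyme and its delivery to the cell membrane. Small membrane proteins of the FXYD family bind the assembled pump and adjust its affinity for sodium. The catalytic α subunits of muscle were not analysed here.

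Values are MAS 5.0 signals, an intensity on a linear scale. Array medians ran between 167.1 and 180.5, the β-actin 3′/5′ ratio was 1.17 to 2.27, and the GAPDH 3′/5′ ratio was 1.27 to 4.02. The spiked control transcripts had a relative level of 1.94 on diabetic replicate 3 and of 0.741 to 1.01 on the other 5 arrays. Probe sets with a mean signal above 105.8, the 40th percentile, were tested with limma's moderated test on log2 signals, and a probe set passed at a Benjamini-Hochberg adjusted p under 0.05 over the 9519 tested. Of the 6 probe sets, 5 were tested.

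By brightest probe set, expression of Atp1b1 and Atp1b4 fell in diabetic diaphragm, to 48.6% and 48.7% of the mean in normal diaphragm. The other Atp1b1 probe set was at 61.0%. Atp1b3 and Fxyd1 did not pass the test, and Atp1b2 was too dim to be tested. By brightest probe set, 2 of the 4 tested genes were lower and 0 were higher. Among all 7080 tested genes, 3.55% were lower and 3.46% were higher. By the unadjusted p under 0.05 the members' counts were the same, 2 lower and 0 higher, beside 11.9% lower and 12.8% higher among all tested genes. Of the 5 tested member probe sets, 3 passed as lower, both of Atp1b1 and that of Atp1b4, against 3.48% of all tested probe sets. On the same 3 of the 5, the 3 diabetic arrays were all lower than the 3 normal arrays, against 14.4% of all tested probe sets. The median log2 fold change of the 5 tested probe sets was -0.69, against 0.0034 for all tested probe sets.

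**Figure D1:**
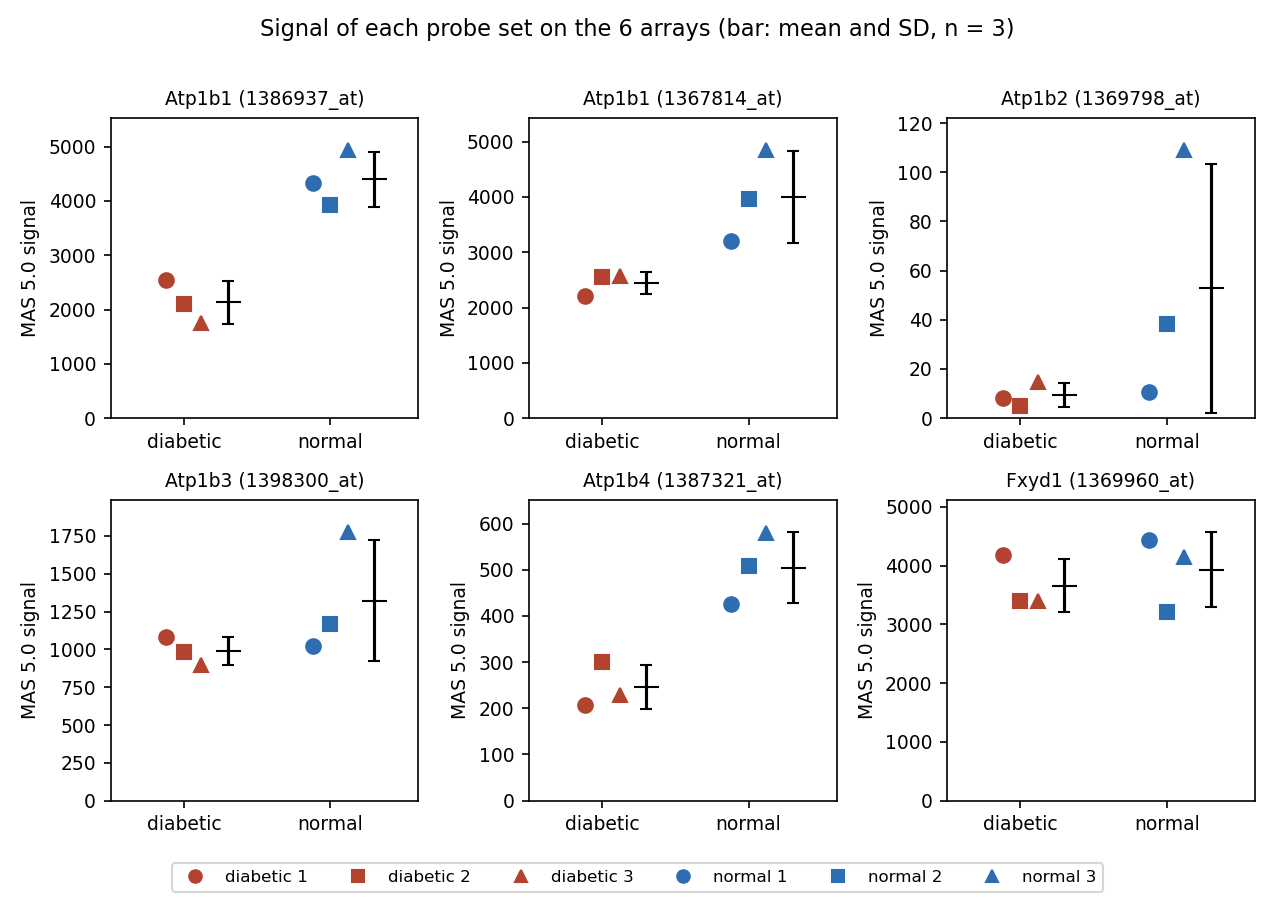
MAS 5.0 signal (vertical axes, linear, each starting at 0) of the 6 probe sets on the 3 diabetic and the 3 normal arrays, with the mean and SD of each group beside the points. The diabetic points lie below all normal points in both Atp1b1 panels and in the Atp1b4 panel, and the groups overlap in the Atp1b2, Atp1b3 and Fxyd1 panels.

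Atp1b1 encodes the widely expressed β1 subunit. Its brighter probe set, 1386937_at, had signals of 2547, 2109 and 1758 in diabetic diaphragm, against 4322, 3927 and 4942 in normal diaphragm. The groups did not overlap, and the gap between the highest diabetic and the lowest normal array was wider than the range within either group. The mean was 2138 ± 396 in diabetic and 4397 ± 511 in normal muscle (SD, n = 3 each), which was 2.06-fold lower. The log2 fold change was -1.05 (SE 0.17, limma adjusted p = 0.00725), with a 95% confidence interval from -1.43 to -0.67. On the scale of ratios, this interval ran from 0.371 to 0.629. In whole muscle, fewer cells that express a gene and less RNA per cell cannot be told apart.

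The other Atp1b1 probe set, 1367814_at, had signals of 2206, 2551 and 2571 in diabetic muscle, against 3197, 3955 and 4853 in normal muscle. Here too all diabetic arrays were lower, but the normal arrays were spread more widely. The mean was 2443 ± 205 in diabetic and 4002 ± 829 in normal muscle (SD, n = 3 each). The fold change was smaller than on the brighter probe set, at 1.64-fold lower, with a log2 value of -0.69 (SE 0.17, limma adjusted p = 0.0415). This call was lost when any 1 array other than normal replicate 1 was left out, with log2 fold changes from -0.73 to -0.55 and adjusted p from 0.0762 to 0.116. Averaged over both probe sets, the log2 fold change of Atp1b1 was -0.87 (SE 0.15, limma adjusted p = 0.00764). The order of the diabetic arrays differed between the probe sets. Replicate 1 was the highest diabetic array on the brighter one and the lowest on the other.

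Atp1b2 encodes the β2 subunit, first described in glia as an adhesion molecule and also found in fast muscle fibres. Its only probe set, 1369798_at, was dim, with signals of 8.4, 5.1 and 14.9 in diabetic muscle, against 10.8, 38.4 and 109.2 in normal muscle. The groups overlapped, and a single array, normal replicate 3, was above the filter level of 105.8. The mean was 9.47 ± 4.99 in diabetic and 52.8 ± 50.8 in normal muscle (SD, n = 3 each). The difference of mean log2 signals was -2.05, and in a fit with no filter it did not pass (limma adjusted p = 0.254). The size of the difference moved with the handling of low signals, and was -1.17 with 16 and -0.58 with 64 added to every signal. Without normal replicate 3 it was -1.24, and without normal replicate 1 it was -2.91.

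Atp1b3 encodes the β3 subunit, which is found in many tissues. Its probe set, 1398300_at, had signals of 1084, 983.1 and 899.6 in diabetic muscle, against 1021, 1165 and 1774 in normal muscle. Normal replicate 3 stood well above the other 5 arrays, and diabetic replicate 1 was higher than normal replicate 1. The mean was 989 ± 92.5 in diabetic and 1319.9 ± 400.02 in normal muscle (SD, n = 3 each). The log2 fold change of -0.38 (SE 0.21) did not pass the test (limma adjusted p = 0.30), and its 95% confidence interval from -0.84 to 0.08 included 0. Without normal replicate 3 the log2 fold change was -0.14, and without normal replicate 1 it was -0.54, neither of which passed.

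Atp1b4 encodes βm, a relative of the β subunits made in muscle. In placental mammals βm does not join the pump but lies in the inner nuclear membrane, where it binds the transcriptional coregulator SNW1. Its probe set, 1387321_at, had signals of 207.9, 299.7 and 229.5 in diabetic muscle, against 425.8, 508.2 and 579.5 in normal muscle. All diabetic arrays were lower than all normal arrays. The mean was 246 ± 48.0 in diabetic and 504.5 ± 76.9 in normal muscle (SD, n = 3 each), which was 2.05-fold lower. The log2 fold change was -1.04 (SE 0.20, limma adjusted p = 0.0134), with a 95% confidence interval from -1.48 to -0.60. The call held with any 1 array left out, the weakest being without diabetic replicate 1 (limma adjusted p = 0.0491).

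Fxyd1 encodes phospholemman, the FXYD protein of heart and skeletal muscle, which inhibits the pump until protein kinase A or C phosphorylates it. Its probe set, 1369960_at, had signals of 4181, 3394 and 3406 in diabetic muscle, against 4430.0, 3216 and 4150 in normal muscle. The groups overlapped over most of their range, and the lowest array of all was a normal one. The mean was 3660.2 ± 451 in diabetic and 3932 ± 636 in normal muscle (SD, n = 3 each). The log2 fold change of -0.10 (SE 0.17) did not pass the test (limma adjusted p = 0.771). Its 95% confidence interval ran from -0.47 to 0.27, or a ratio from 0.723 to 1.21. It did not reach the 2-fold lower levels of Atp1b4 and of the brighter Atp1b1 probe set.

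The 250 bases before the start of Atp1b4, which fell, and of Fxyd1, which did not pass, are shown to set the upstream sequence of a gene that passed and one that did not side by side. They are from RefSeq, build GRCr8, at chrX:121952727-121952976 on the plus strand and at chr1:95418581-95418830 on the minus strand. Each is written 5′ to 3′ along its gene, and capitals mark E-boxes, the CANNTG motif bound by the myogenic factors of the MyoD family and by many other proteins.
Atp1b4: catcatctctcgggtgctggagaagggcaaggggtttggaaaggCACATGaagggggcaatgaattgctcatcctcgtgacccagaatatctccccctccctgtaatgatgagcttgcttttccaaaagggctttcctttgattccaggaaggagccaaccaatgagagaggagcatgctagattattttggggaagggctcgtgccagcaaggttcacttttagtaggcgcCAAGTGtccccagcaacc
Fxyd1: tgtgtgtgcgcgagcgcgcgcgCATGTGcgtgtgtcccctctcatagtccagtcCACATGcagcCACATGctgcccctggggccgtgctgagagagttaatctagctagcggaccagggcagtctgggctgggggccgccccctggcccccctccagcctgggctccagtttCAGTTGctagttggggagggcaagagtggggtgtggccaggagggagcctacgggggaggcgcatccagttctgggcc

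The Atp1b4 stretch had 51.6% G and C and the Fxyd1 stretch had 66.8%. Motifs were searched on both strands of windows that also held the first 50 bases after the start, with entries for Atp1b2, Atp1b3, Atp1b4 and Fxyd1. E-boxes numbered 2 in Atp1b4, 5 in Fxyd1 (4 of them before the start), 1 in Atp1b2 and 0 in Atp1b3, and 72.1% of 33469 windows of the same length held at least 1. The GC box GGGCGG was found 0 times in Atp1b4, 1 time in Fxyd1, 2 times in Atp1b2 and 6 times in Atp1b3, and 33.1% of all windows held it. The letters CCAAT occurred 1 time in Atp1b4, 0 times in Fxyd1 and 2 times each in Atp1b2 and Atp1b3, against 37.5% of all windows with a match. TATAAA was found only in Atp1b2, 1 time, and in 14.2% of all windows, while the MEF2 motif was found in none of the 4 windows and in 3.29% of all windows. These are matches of letters, which the expression data did not test.

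**Figure D2:**
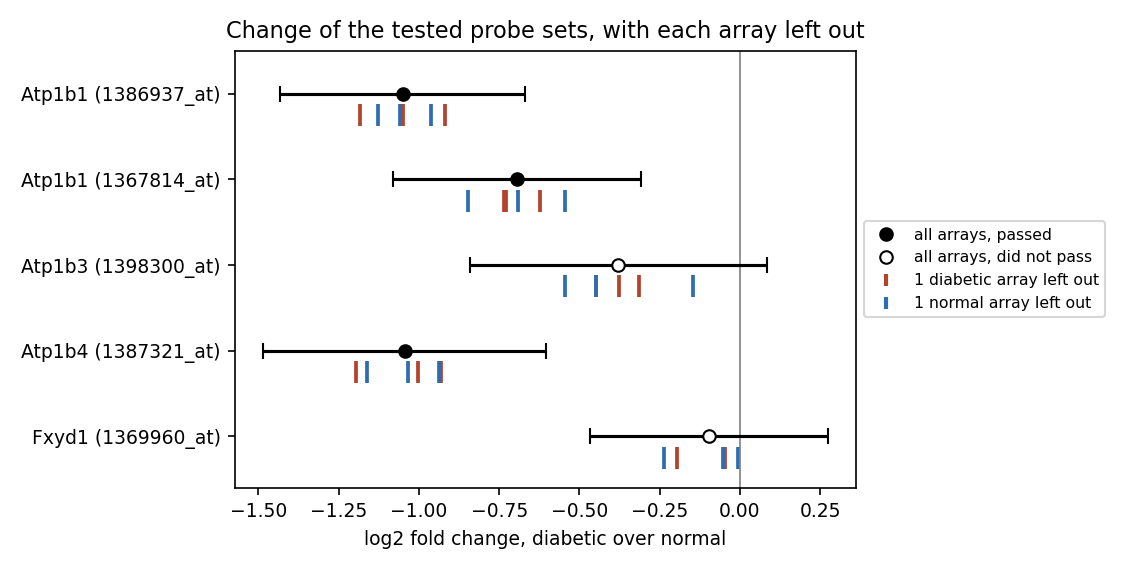
Log2 fold change, diabetic over normal (horizontal axis), of the 5 tested probe sets with its 95% confidence interval from limma, and below each the values with 1 array left out. The intervals of both Atp1b1 probe sets and of Atp1b4 lie below 0, those of Atp1b3 and Fxyd1 include 0, and the value of Atp1b3 moves to -0.14 without normal replicate 3.

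The changes of the members were also set against each other within each array, as the difference of their log2 signals, over the 6 pairs of tested members by brightest probe set. On these probe sets, Atp1b1 and Atp1b4 fell by about the same amount. The diabetic minus normal difference between them was -0.0062, with overlapping groups (2-sided exact permutation test, p = 0.9). The within-array difference was 3.12 ± 0.43 in diabetic and 3.13 ± 0.20 in normal muscle (SD, n = 3 each), so the spread leaves room for unequal changes. With the mean over both Atp1b1 probe sets, the diabetic minus normal difference was 0.17.

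Against Fxyd1, the groups separated for both genes that fell. The log2 signal of Atp1b1 minus that of Fxyd1 was -0.79 ± 0.15 in diabetic and 0.17 ± 0.18 in normal muscle (SD, n = 3 each), a difference of -0.95. For Atp1b4 minus Fxyd1, it was -3.91 ± 0.41 in diabetic and -2.96 ± 0.37 in normal muscle (SD, n = 3 each), also a difference of -0.95. Against Atp1b3, the groups separated as well, with a difference of -0.67 for Atp1b1 minus Atp1b3 and of 0.67 for Atp1b3 minus Atp1b4.

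For each of these 4 pairs the exact permutation p was 0.1, the smallest that 3 arrays against 3 can give, and 0.15 after adjustment over the 6 pairs, so no pair could pass. The sixth pair, Atp1b3 minus Fxyd1, differed by -0.28 with overlapping groups (exact permutation p = 0.4, adjusted p = 0.48).

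**Figure D3:**
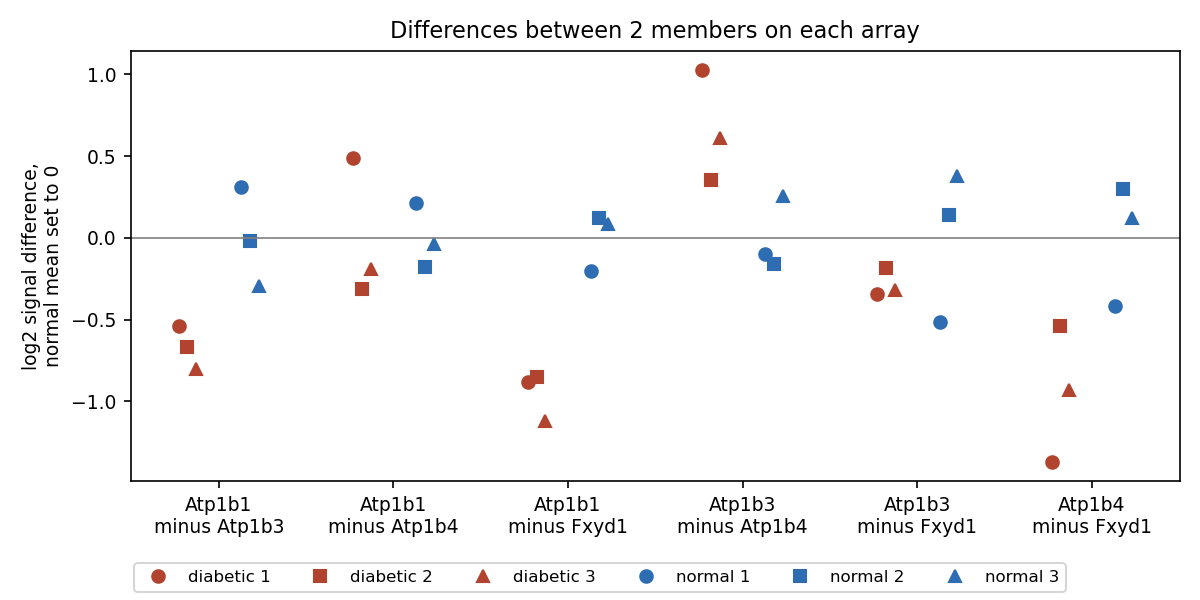
Difference of log2 signals between 2 members on each array (vertical axis), with the mean of the normal arrays set to 0, for the 6 pairs of tested members. The 3 diabetic points lie apart from the 3 normal points in 4 pairs, and the groups overlap for Atp1b1 minus Atp1b4 and for Atp1b3 minus Fxyd1.

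Another 65 genes of the pump and its surroundings were placed on 4 lists, and of these 56 had a named probe set and 46 were tested. Of these, 1 was higher, 2 were lower and 43 did not pass, beside 3.46% higher and 3.55% lower among all tested genes. The median log2 fold change of all tested genes was 0.0080.

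Of 10 genes of the FXYD family, the sperm pump and the proton pumps, 4 were tested, all of the FXYD family. They were Fxyd2, Fxyd3, Fxyd5 and Fxyd6, with log2 fold changes from 0.0080 to 0.11 and a median of 0.04, and 95% confidence intervals that reached from -0.59 to 0.66. None passed in limma, at an adjusted p or at an unadjusted p under 0.05 (0 of 4 higher and 0 of 4 lower).

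Of the ion transporters that run on the gradients made by the pump, 9 were tested, with a median log2 fold change of -0.07 and a range from -0.45 to 0.74. A single transporter passed as higher (3 higher and 0 lower at an unadjusted p under 0.05). This was Slc20a2, which carries phosphate into the cell together with sodium. Its brighter probe set had signals of 825.6, 771.7 and 723.2 in diabetic muscle, against 528.7, 420.3 and 441.4 in normal muscle, with no overlap. The log2 fold change was 0.74 (SE 0.16, limma adjusted p = 0.0222), or 1.67-fold by means. The call was lost without diabetic replicate 1 or 2 or normal replicate 2 or 3 (adjusted p 0.0596 to 0.0726), and the other probe set gave 0.13 (adjusted p = 0.845).

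Of the listed kinases, phosphatases, hormone receptors and other regulators, 25 were tested and 0 passed in either direction in limma, with a median log2 fold change of 0.01. At an unadjusted p under 0.05, 3 were higher and 2 were lower, beside 12.8% and 11.9% of all tested genes. Both ends of the range are named after their values were seen. Nedd4l, a ubiquitin ligase that acts on sodium channels, had a log2 fold change of 0.85 (SE 0.24, limma adjusted p = 0.0602). Prkaa2, a catalytic subunit of the AMP-activated kinase, had one of -0.73 (SE 0.29, limma adjusted p = 0.164).

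Of the scaffolds that hold the pump and its neighbours at the membrane, 8 were tested, 0 were higher and 2 were lower (1 and 3 at an unadjusted p under 0.05), and the median log2 fold change was -0.34. Aqp4, a water channel rather than a scaffold, is anchored by the dystrophin complex and is known from fast fibres. It had signals of 331.4, 129.4 and 231.4 in diabetic muscle, against 688.5, 962.6 and 1057 in normal muscle. The groups were far apart, with a mean of 231 ± 101 in diabetic and 903 ± 191 in normal muscle (SD, n = 3 each), or 3.91-fold lower. The log2 fold change was -2.05 (SE 0.31, limma adjusted p = 0.00501), and it passed with any 1 array left out.

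Ank2 encodes ankyrin-B, which links the pump to the membrane skeleton. It had signals of 488.1, 339.3 and 406.6 in diabetic muscle, against 631.0, 689.9 and 679.0 in normal muscle. The groups did not overlap, and the log2 fold change was -0.71 (SE 0.17, limma adjusted p = 0.0385). This call held only without diabetic replicate 1 when arrays were left out in turn, and was otherwise lost (highest adjusted p 0.125, without diabetic replicate 2).

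**Figure D4:**
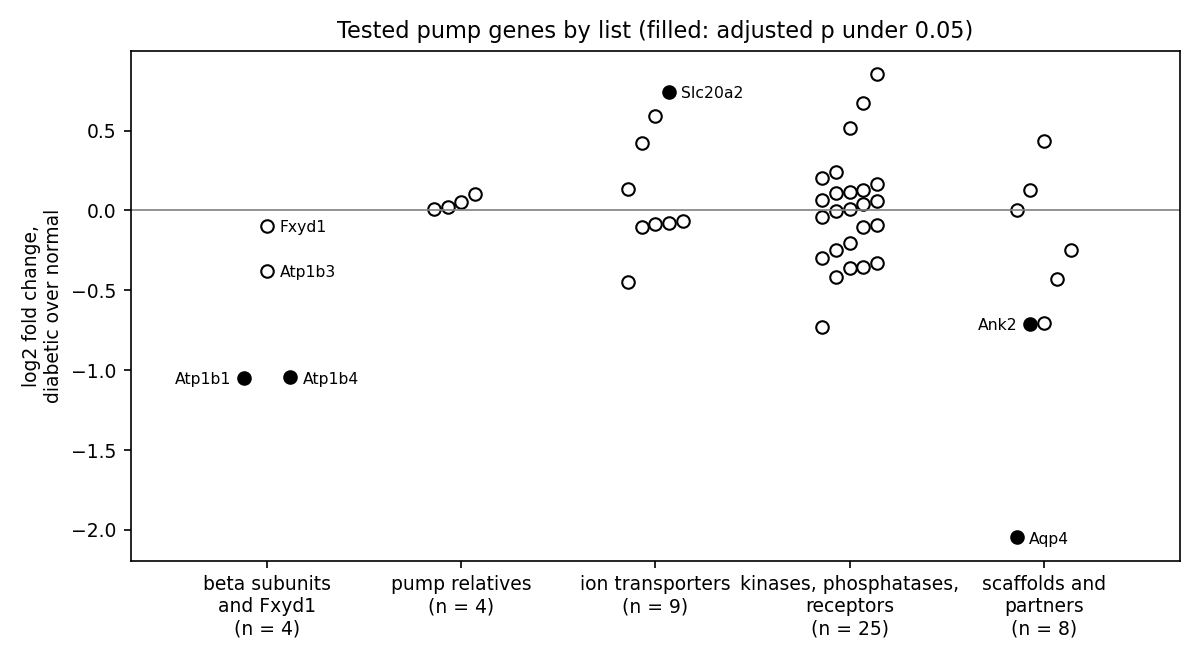
Log2 fold change, diabetic over normal (vertical axis), of the 4 tested members and of the tested genes on the 4 other lists, 1 point per gene by its brightest probe set, filled where the limma adjusted p was under 0.05. The filled points are Atp1b1, Atp1b4, Ank2 and Aqp4 below 0 and Slc20a2 above 0.

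Markers of the slow and fast fibre types were counted on the same arrays. All 9 measured skeletal muscle markers were above the filter, and 2 of them, Myh4 and Mb, were lower in diabetic muscle. The call of Mb held only without diabetic replicate 3 when arrays were left out in turn, and was otherwise lost (adjusted p 0.0606 to 0.133). The 9 markers' summed signal was 130032 to 187815 in diabetic and 171473 to 196291 in normal muscle. Of 10 fast fibre markers, all tested, 3 were lower and 0 were higher in limma (5 and 0 at an unadjusted p under 0.05), with a median log2 fold change of -0.34. Their summed signal was 125675 to 161811 in diabetic muscle and 175984 to 200404 in normal muscle, with no overlap. Without the 3 that fell, the sums of the other 7 overlapped, at 113797 to 150286 in diabetic and 142643 to 167919 in normal muscle. These 3 were left out because they had passed, so the overlap does not show that the other 7 were unchanged. All 10 log2 fold changes were below 0, from -1.82 to -0.07. Of 8 slow fibre markers, all tested, 0 passed in limma, also at an unadjusted p under 0.05, with a median of -0.06. Their summed signal overlapped, at 135490 to 182087 in diabetic and 141463 to 169436 in normal muscle. The log2 fold changes of the slow markers lay on both sides of 0, from -0.28 to 0.15.

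The fast markers that fell were Myh4, Pvalb and Casq1. Myh4, the myosin heavy chain of the fastest fibres, had signals of 3050.5, 1975 and 1678 in diabetic muscle, against 7495, 8705 and 6875 in normal muscle (log2 fold change -1.82, SE 0.21, limma adjusted p = 0.00165). Pvalb, the calcium buffer of fast fibres, had signals of 5435, 4139 and 2329 in diabetic muscle, against 9975, 13306 and 13978 in normal muscle (log2 fold change -1.72, SE 0.27, limma adjusted p = 0.00608). In both, the lowest normal array was well above the highest diabetic one. Casq1, the calcium-binding protein of the sarcoplasmic reticulum, had a log2 fold change of -0.72 (SE 0.14, limma adjusted p = 0.0169), and its call was lost without diabetic replicate 2, normal replicate 2 or normal replicate 3 (adjusted p 0.0518 to 0.0559).

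Set as a percent of the normal mean, the diabetic arrays 1, 2 and 3 were at 57.93, 47.96 and 39.97% for the brighter Atp1b1 probe set. For Myh4 they were at 39.7, 25.7 and 21.8%, and for Pvalb at 43.76, 33.33 and 18.75%. They were at 41.2, 59.4 and 45.5% for Atp1b4. The other Atp1b1 probe set was at 55.1, 63.8 and 64.3% and Casq1 at 64.02, 51.55 and 67.24%. The order of the diabetic arrays was the same for the brighter Atp1b1 probe set, Myh4 and Pvalb. It differed for Atp1b4, Casq1 and the other Atp1b1 probe set. It also differed for the other 7 fast fibre markers, which were all lowest on diabetic replicate 2. With 3 arrays, an order can easily be shared by chance. The part of fibre type in the values of Atp1b1, Atp1b4 and Aqp4 was not tested.

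**Figure D5:**
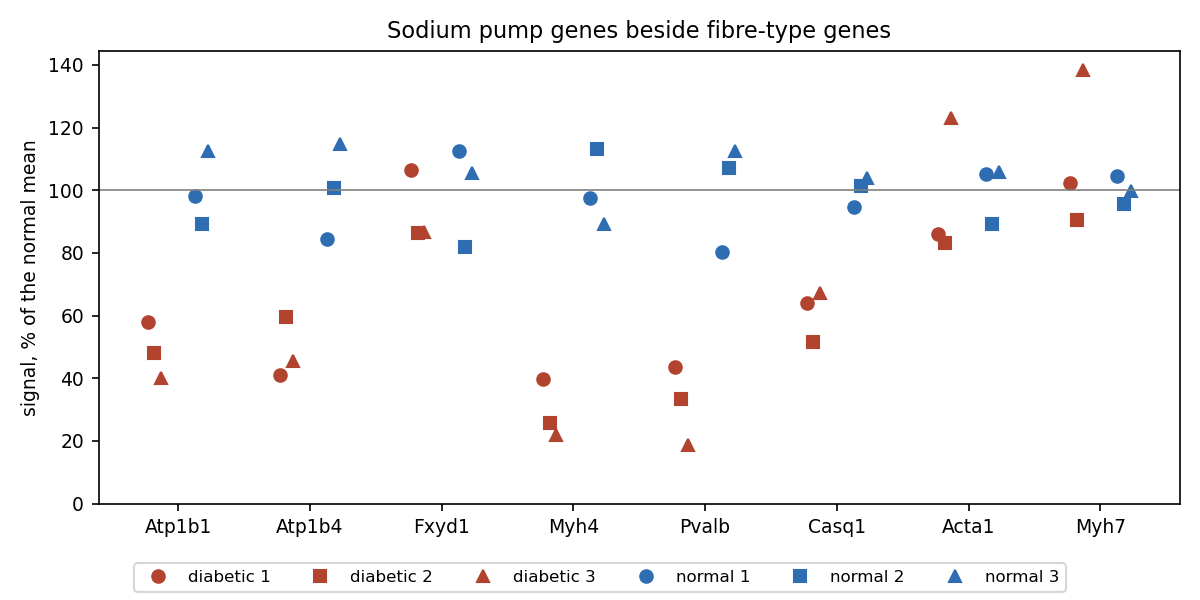
Signal of each array as a percent of the mean of the normal arrays (vertical axis, linear, starting at 0) for Atp1b1 (brighter probe set), Atp1b4 and Fxyd1. Beside them are Myh4, Pvalb and Casq1, the 3 fast fibre markers that passed, the actin gene Acta1 and the slow myosin gene Myh7. The other 7 fast fibre markers, which did not pass, are not plotted. The 3 diabetic points lie below all normal points for Atp1b1, Atp1b4, Myh4, Pvalb and Casq1, and overlap with the normal points for Fxyd1, Acta1 and Myh7.

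Markers of the other cells of the muscle were also counted. Of the nerve, Schwann cell and glia markers, 3 of 8 were above the filter, with the defining genes Mag, Sox10 and Gfap below it, and 0 passed (at an unadjusted p under 0.05, 0 were higher and 1 was lower). The 1 lower was S100b (log2 fold change -0.83, limma adjusted p = 0.077). The summed signal, most of it from Pmp22, overlapped, at 3488 to 4303 in diabetic and 3379 to 4240 in normal muscle. Endothelial markers had a summed signal of 2877 to 3140 in diabetic and of 2508 to 2648 in normal muscle, with no overlap, but without Kdr the sums of the other 3 overlapped, at 1334 to 1615 in diabetic and 1448 to 1679 in normal muscle. Of 4 tested, Kdr was higher (log2 fold change 0.66, limma adjusted p = 0.0464) and Tie1 was lower (-0.74, limma adjusted p = 0.0309), and each of these calls was lost with any 1 array left out. Kdr was left out of the sums because it had passed as higher, while Tie1 was kept. The overlap without Kdr therefore does not show that the other 3 were unchanged. Of 4 tested smooth muscle markers, Acta2 was lower (-0.61, limma adjusted p = 0.0486), a call also lost with any 1 array left out. In limma 0 passed of 2 adipocyte, 6 leukocyte, 2 red blood cell and 4 mesothelial markers, also at an unadjusted p under 0.05.

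The genes whose log2 signals ran most alike with each member are given as a description only, since 6 arrays share 2 group levels and a dense set of genes was searched. With Atp1b1 these were Apln, the secreted peptide apelin (r = 0.9967), Mdh1, the cytosolic malate dehydrogenase (r = 0.9962), and Pi16, a peptidase inhibitor (r = 0.9960), among 8089 named probe sets over 6 arrays. With Atp1b4 they were Mybpc2, the myosin-binding protein C of fast fibres (r = 0.9914), Ano5, an anoctamin of the muscle membrane (r = 0.9906), and Brms1l (r = 0.9877), among 8090.

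The members that did not pass had other companions. With Atp1b3 the most alike were Bloc1s2 (r = 0.9869), Kcnj11, the pore of the ATP-sensitive potassium channel (r = 0.9864), and Trib1 (r = 0.9854). With Fxyd1 they were Nudt3 (r = 0.9687), Chmp7 (r = 0.9629) and Yif1a (r = 0.9618), which reached lower values of r than those of the other members. For the dim Atp1b2 they were Selenon (r = 0.9934), Popdc2 (r = 0.9927) and Me1, the cytosolic malic enzyme (r = 0.9910).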

How the data were processed

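RNA of 6 diaphragms was hybridised to 6 arrays. The deposited values are probe set signals from the MAS 5.0 software run by the authors, an intensity on a linear scale. Whether and how they were scaled between arrays is not given in the sources used here. Genes were named through the platform annotation: 12783 probe sets had 1 gene, 312 had several and 2771 had none.

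The log2 of each signal was used without another normalization, after 136 signals under 1 had been raised to 1. The 57 control probe sets and those at or below the 40th percentile of mean signal were left out. The 9519 others were fitted in limma 3.58.1 (R 4.3.3, lmFit and eBayes with a trended variance prior), with Benjamini-Hochberg adjustment. The number of arrays, with 4 residual degrees of freedom, limits the precision. For genes with several probe sets, the one with the highest mean was used. Pairs of members were compared by a 2-sided exact permutation test.

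The members and gene lists were chosen with earlier results of these data known. Named genes are all members, list genes that passed (at most 4 per list), and the 3 genes most alike with each member. Markers named for comparison, such as Acta1 and Myh7, and the ends of a range, were chosen after their values were seen. Alternatives were quantile and median scaling, 16 or 64 added before log2, no filter or the 60th percentile, no variance trend, array weights, a block for replicate number, leaving out each array, other thresholds, ratios of means, and means over the probe sets of a gene, the last for single values added after seeing the data. Present calls and the BAM test of the study were not used here.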

Additional observations from a re-analysis of the deposited data

How the results depend on the processing

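Atp1b1 by its brighter probe set and Atp1b4 passed as lower under every alternative fitted with a test, with limma adjusted p up to 0.0318 and 0.0491, and Atp1b3 and Fxyd1 passed under none. The counts of 2 members lower and 0 higher were the same in all 18 alternatives. The other Atp1b1 probe set did not pass with no filter (-0.69), with no variance trend (-0.69), with array weights (-0.60) or with the replicate block (-0.69), and ranged from -0.85 to -0.55 with 1 array left out.

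Of the tested genes on the 4 other lists, the 2 lower became 1 under median scaling, no filter, no variance trend and the replicate block. They became 1 to 2 with 1 array left out, and 5 at an unadjusted p. The 1 higher became 2 with array weights and at an adjusted p under 0.1, 0 with the replicate block, 0 to 1 with 1 array left out, and 7 at an unadjusted p. Over all probe sets, 331 were lower and 314 higher. With the replicate block these were 170 and 162, at an adjusted p under 0.1 585 and 562, and at an unadjusted p under 0.05 1112 and 1163. With no filter 200 were higher, and with 1 array left out 177 to 236 were lower and 135 to 226 higher.

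The difference between Atp1b1 and Atp1b4 changed sign to 0.17 with the mean over probe sets, and ranged from -0.25 to 0.15 with 1 array left out. Causes were not tested. Rats with the same number shared only that number: their deviations correlated at 0.098, -0.20 and -0.068, and only diabetic replicate 1 matched its own number best. A dim signal limits Atp1b2.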
